A study of Mus musculus with 8 samples.

Results

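The genes described here code for the secreted and membrane-bound metalloproteases that cut the extracellular matrix and cell-surface proteins, together with their inhibitors, measured in the mouse iris. Members were chosen by gene symbol alone: the ADAMTS proteases, the ADAMTS-like proteins, the matrix metalloproteinases (MMP), the tissue inhibitors of metalloproteinases (TIMP) and the numbered ADAM genes. The rule found 72 of the 22873 genes counted, namely 19 ADAMTS, 5 ADAMTS-like, 20 MMP, 4 TIMP and 24 ADAM genes. Together they held 354915 unique molecular identifiers (UMIs, each a counted transcript molecule), of which 134850 belonged to ADAMTS genes and 60642 to TIMP genes.

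Single nucleus RNA-seq was carried out on nuclei purified from irises of wild-type albino female mice aged 6 to 8 weeks, with several irises pooled in each of 8 libraries. The 2 dilated libraries came from eyes given hourly drops of 5% phenylephrine, an alpha-adrenergic agonist that contracts the dilator, with 1% cyclopentolate, a muscarinic antagonist, for 6.5 h in the dark. The 3 constricted libraries came from eyes given hourly drops of 5% pilocarpine, a muscarinic agonist that contracts the sphincter, for 6.5 h in the light, and the 3 untreated libraries received no drops. Drug, pupil size and lighting changed together and cannot be told apart, and only RNA within nuclei was counted.

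MMP and ADAMTS proteases are made as inactive precursors and cut collagens, proteoglycans such as versican and aggrecan, and fibrillin microfibrils. ADAM proteases sit in the cell membrane and release the outer parts of receptors, ligands and adhesion molecules, although several of them lack an active site. TIMPs bind the active site of these enzymes, and the ADAMTS-like proteins carry the matrix-binding domains of the ADAMTS family without the protease. The iris folds and stretches with every change of pupil size, and mutations of several ADAMTS and ADAMTS-like genes are known to displace the lens, which hangs from fibrillin-rich fibres of the ciliary body.

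The deposited files held 34357 nuclei and 109565284 UMIs, with 5189437 to 25136427 UMIs per library, and the authors' labels put each nucleus in 1 of 10 cell types. Counts were summed by library and cell type, which left 387 nuclei for leukocytes and 273 for endothelial cells against 11606 for dilator muscle, so values in those 2 types were the least precise. The defining markers of stroma 1, stroma 2, sphincter 1, leukocytes and endothelial cells were highest in their own type in untreated irises, as were Adra1a and Nos1 in dilator muscle. Those of sphincter 2 were each highest in another muscle type, Myh11 was higher in both sphincters than in dilator muscle, and Otx1 and Pax6 were higher elsewhere than in iris pigment epithelium (PE), as were Zic1 and Pax6 than in the ciliary body epithelium (CBE). In all, 195 barcodes occurred in 2 or more libraries. Untreated replicate 1 and dilated replicate 1 shared 63, of which 59 carried the same cell type label, and whether these are copies was not tested. Leaving out the 400 nuclei with such a barcode, 1.164% of all, left 18 member calls in dilated against untreated irises, the same number as with them.

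Of the 72 members, 52 passed the filter on low counts in at least 1 cell type and 2 passed in all 10. The 20 that passed nowhere held 9 to 170 UMIs over all libraries and were Adam1a, Adam1b, Adam3, Adam7, Adam8, Adam21, Adam24, Adam28, Adamts8, Mmp1b, Mmp3, Mmp9, Mmp10, Mmp13, Mmp17, Mmp20, Mmp21, Mmp24, Mmp25 and Timp4. The gelatinase Mmp9, the stromelysin Mmp3 and the collagenase Mmp13, often measured in inflamed eyes, were thus close to undetected in these nuclei, with 89, 28 and 9 UMIs.

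The promoters of 3 members whose levels moved furthest in dilator muscle, described below, are shown here as the 250 bases before the annotated RefSeq start in GRCm38.p6, 5′ to 3′ on the gene's strand. They belong to Mmp12 at chr9:7347124-7347373 on the plus strand, Timp1 at chrX:20869916-20870165 on the plus strand and Adamts18 at chr8:113848840-113849089 on the minus strand. Mmp12 has a second annotated start upstream, and the window shown lies inside the longer gene model. Capitals mark the letters of a motif searched on both strands.
Mmp12: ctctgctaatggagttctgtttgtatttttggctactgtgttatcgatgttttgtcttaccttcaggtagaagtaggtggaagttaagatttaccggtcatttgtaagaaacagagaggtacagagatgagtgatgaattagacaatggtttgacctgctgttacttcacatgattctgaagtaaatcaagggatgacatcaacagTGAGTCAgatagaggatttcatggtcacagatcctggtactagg
Timp1: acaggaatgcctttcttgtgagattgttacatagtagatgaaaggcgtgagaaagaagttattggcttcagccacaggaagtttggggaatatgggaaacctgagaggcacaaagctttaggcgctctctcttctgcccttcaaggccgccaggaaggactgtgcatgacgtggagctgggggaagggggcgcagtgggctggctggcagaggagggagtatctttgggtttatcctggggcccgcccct
Adamts18: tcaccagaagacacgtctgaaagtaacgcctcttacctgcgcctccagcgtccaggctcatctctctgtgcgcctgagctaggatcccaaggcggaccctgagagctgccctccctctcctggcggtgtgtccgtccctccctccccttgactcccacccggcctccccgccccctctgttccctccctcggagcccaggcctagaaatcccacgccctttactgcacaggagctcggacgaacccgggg

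The motifs were TGANTCA (the AP-1 element), TGACGTCA (the cyclic AMP element), GCGNGGGCG (the EGR element) and TATAAA (the TATA box), none of which can hide another. In the window of Mmp12 shown, the AP-1 letters began 44 bases before the start, and the windows of Timp1 and Adamts18 held none of the 4 motifs. The Mmp12 window at the upstream start, chr9:7344147-7344396, which is not shown, also held none of the 4. Among all 32851 mouse promoters of this length, 6.75% held TGANTCA, 1.55% TGACGTCA, 4.7% GCGNGGGCG and 12.4% TATAAA. Of the 17 members called in dilated against untreated irises, 12 had an entry, with 13 windows, of which 1 held TGANTCA, 1 GCGNGGGCG and 1 TATAAA. A match of letters is not evidence of binding.

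In untreated irises each cell type had its own leading members. All levels are the share of UMIs of that cell type in a library, scaled to a total of 1000000 (CPM), as the mean ± SD over 3 libraries, and no test is given between cell types because the types were clustered on the same counts. Stroma 2 and iris PE were rich in the secreted protease Adamts16, at 1366 ± 292 CPM and 1197 ± 153 CPM, and these neighbours in the order overlapped in their libraries. The next type, CBE, had 288 ± 31 CPM, and dilator muscle had 25.8 ± 4.8 CPM. Adamts5, an aggrecan- and versican-cutting enzyme, stood at 783 ± 47 CPM in sphincter 1, at 338 ± 8 CPM in iris PE and at 12.7 ± 1.9 CPM in stroma 2. All 3 sphincter 1 libraries lay above every iris PE library.

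Among the inhibitors, Timp3 binds tightly to the matrix and also blocks aggrecanases and ADAM17. It reached 816 ± 38 CPM in CBE and 731 ± 143 CPM in iris PE, which overlapped, and 72.5 ± 14.9 CPM in stroma 2. Timp2, the inhibitor that also takes part in activating pro-MMP2, was spread more evenly, from 157 ± 14 CPM in dilator muscle to 57.6 ± 10.6 CPM in sphincter 1. Timp1 was scarce, with 28 UMIs in untreated dilator muscle at 1.72 ± 0.48 CPM, and Timp4 had 10 UMIs in the whole series. The mean of Timp1 in untreated leukocytes, 23.3 CPM, rested on 3 UMIs.

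Compared between genes per kilobase of gene span, Adamtsl5, a fibrillin-binding ADAMTS-like protein, led in dilator muscle at 56.3 ± 4.1 CPM per kb, and in stroma 1 at 28.2 ± 4.4 CPM per kb and stroma 2 at 21.6 ± 1.0 CPM per kb. Adamts1, a protease that cuts versican, was first in iris PE at 37.9 ± 14.6 CPM per kb and second in dilator muscle at 37.5 ± 2.1 CPM per kb. It also led in sphincter 2 at 27.3 ± 3.7 CPM per kb and in ciliary body cells (CB) at 12.2 ± 2.5 CPM per kb. In sphincter 1 the leaders were Adamts5 at 17.2 ± 1.0 CPM per kb and Adamts1 at 16.2 ± 5.3 CPM per kb, which overlapped. Timp3 at 16.6 ± 0.8 CPM per kb and Adamts10, a protease of fibrillin microfibrils, at 7.37 ± 1.72 CPM per kb led in CBE, where Adamts1 overlapped the latter at 7.35 ± 2.19 CPM per kb. Adam33 was second in stroma 1 at 14.5 ± 1.6 CPM per kb and first in leukocytes at 11.3 ± 8.8 CPM per kb, from 95 UMIs there. Its 3 leukocyte libraries ran from 33.1 to 265 CPM, a range that holds all 3 of stroma 1. Because nuclear counts include introns, gene span was used, and the order by exon length was not computed.

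Among the membrane-bound enzymes, Adam10, the main sheddase of Notch and cadherins, was found in every cell type and stood highest in dilator muscle at 646 ± 35 CPM, followed by endothelial cells at 486 ± 92 CPM. Adam17, which releases tumour necrosis factor and ligands of the EGF receptor, was highest in leukocytes at 182 ± 44 CPM. Mmp14, the membrane-type enzyme that activates pro-MMP2, was nearly level between CB at 130 ± 16 CPM and dilator muscle at 125 ± 12 CPM. Its partner Mmp2 (gelatinase A) was instead found mostly in stroma 2 at 55.4 ± 7.5 CPM and endothelial cells at 41.6 ± 15.1 CPM, with 1.61 ± 1.07 CPM in dilator muscle. Of the 58 members with 30 or more UMIs over all untreated cell types together, 13 were highest in stroma 2, 10 in leukocytes and 5 in dilator muscle. Some leukocyte values rested on few UMIs, as for Mmp24 (1), Timp1 (3) and Adamts3 (5). The share of all genes highest in each type was not computed.

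**Figure D1:**
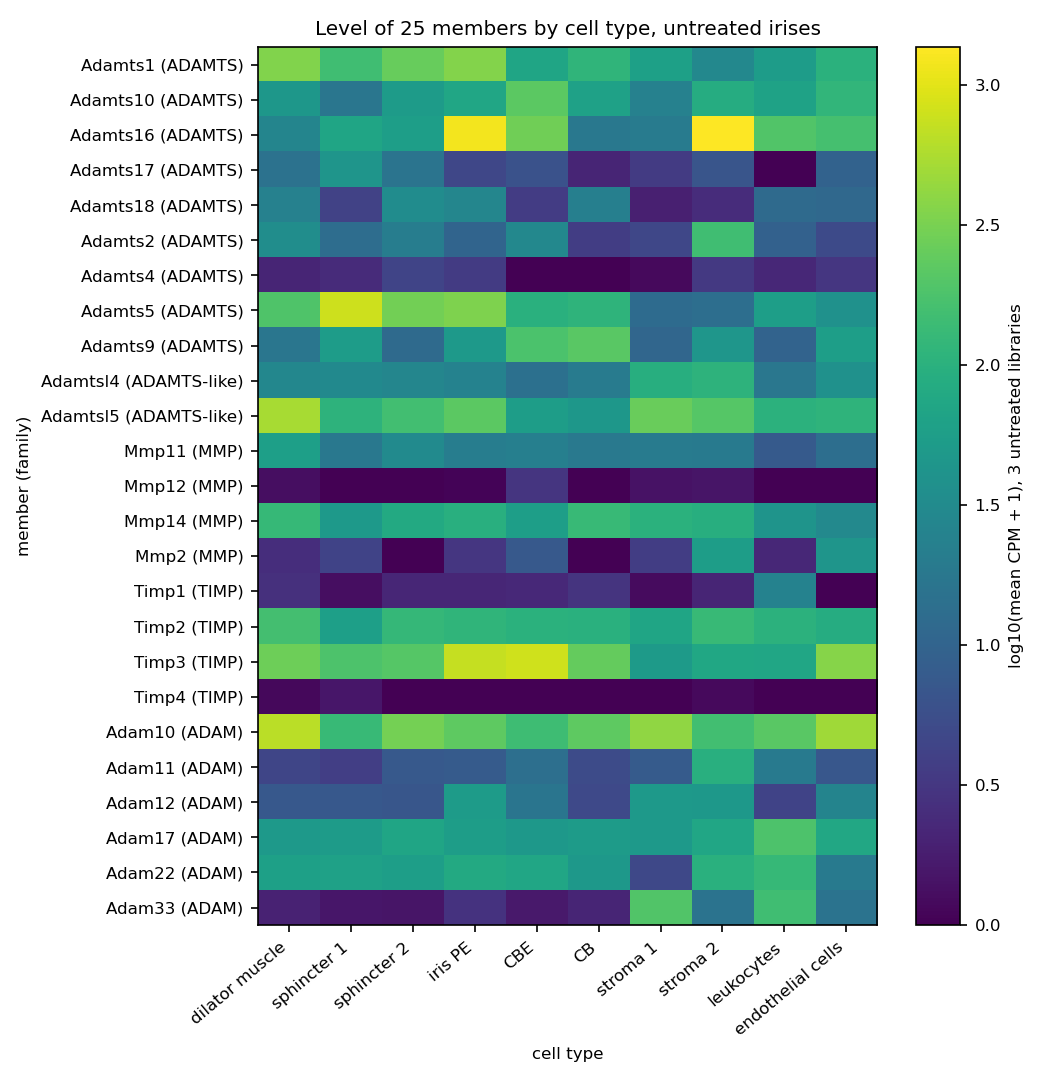
Mean level of 25 named members (rows, with family) in the 10 cell types (columns) of untreated irises, as log10 of the mean CPM of 3 libraries plus 1. Adamts16 is brightest in iris PE and stroma 2, Adamts5 in sphincter 1, Timp3 in CBE and iris PE, and Timp4 and Mmp12 reach at most 0.532 and 2.08 CPM.

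Dilation, set against no treatment, addressed how iris cells respond to a wide pupil. A member was called where the edgeR quasi-likelihood test gave an adjusted p under 0.05 over all genes tested in that cell type and the log2 fold change exceeded 0.6 in size. Over the 10 cell types there were 18 calls on 17 members, 10 higher and 8 lower in dilated irises. In dilator muscle 11 of 47 members tested were called, 5 higher and 6 lower, where 13.3% of all genes tested were called. In stroma 2 it was 4 of 44, against 1.73% of all genes, in stroma 1 it was 2 of 21, against 1.17%, and in sphincter 1 it was 1 of 21, against 1.95%. These counts include Mmp12 in dilator muscle and Adamts4 in stroma 2. Both passed the filter on low counts only through the dilated libraries, where they are high, so their place in the counts adds no support. No member was called by edgeR or by DESeq2 in iris PE (0 of 41, with 0.595% of all genes called), sphincter 2 (0 of 19, 2.87%), CBE (0 of 18, 0.0122%), CB (0 of 17, 0.0665%), leukocytes (0 of 9, 1.32%) or endothelial cells (0 of 4, 0.0%). At an unadjusted p under 0.05 there were 10, 3, 0, 0, 2 and 2 members in these 6 types, where 8.93%, 13.4%, 4.32%, 5.22%, 11.2% and 6.66% of all genes had one. The median log2 fold change of members tested was 0.15 in dilator muscle and 0.06 in stroma 2, beside 0.02 and 0.01 for all genes.

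Among members named, the gene models of Adamts2, Adamts9, Adamts16 and Adam17 also overlap others on the opposite strand, and that of Adamtsl1 overlaps Sh3gl2 on the same strand, so reads of such pairs may be uncertain. The calls were made on these same libraries, so a lack of overlap within them adds no support. In all 18 calls the dilated libraries lay wholly above or below the untreated ones, and in 15 they also lay outside the range of the constricted ones. Library numbers in the labels fall into separate runs: 1 held untreated 1 and dilated 1, another dilated 2 with untreated 2 and 3. The sign of each call was the same in both, which the lack of overlap already fixed, so this adds no support either. The study's methods describe the libraries of a condition as independent biological replicates, processed in several batches, with every condition spread over more than 1 batch. Which library belonged to which batch is not stated, so batch itself could not be fitted. A term for the runs of library numbers (the library number series) served as an alternative, with its counts in the last section. The p-values measure the spread between these libraries only.

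**Figure D2:**
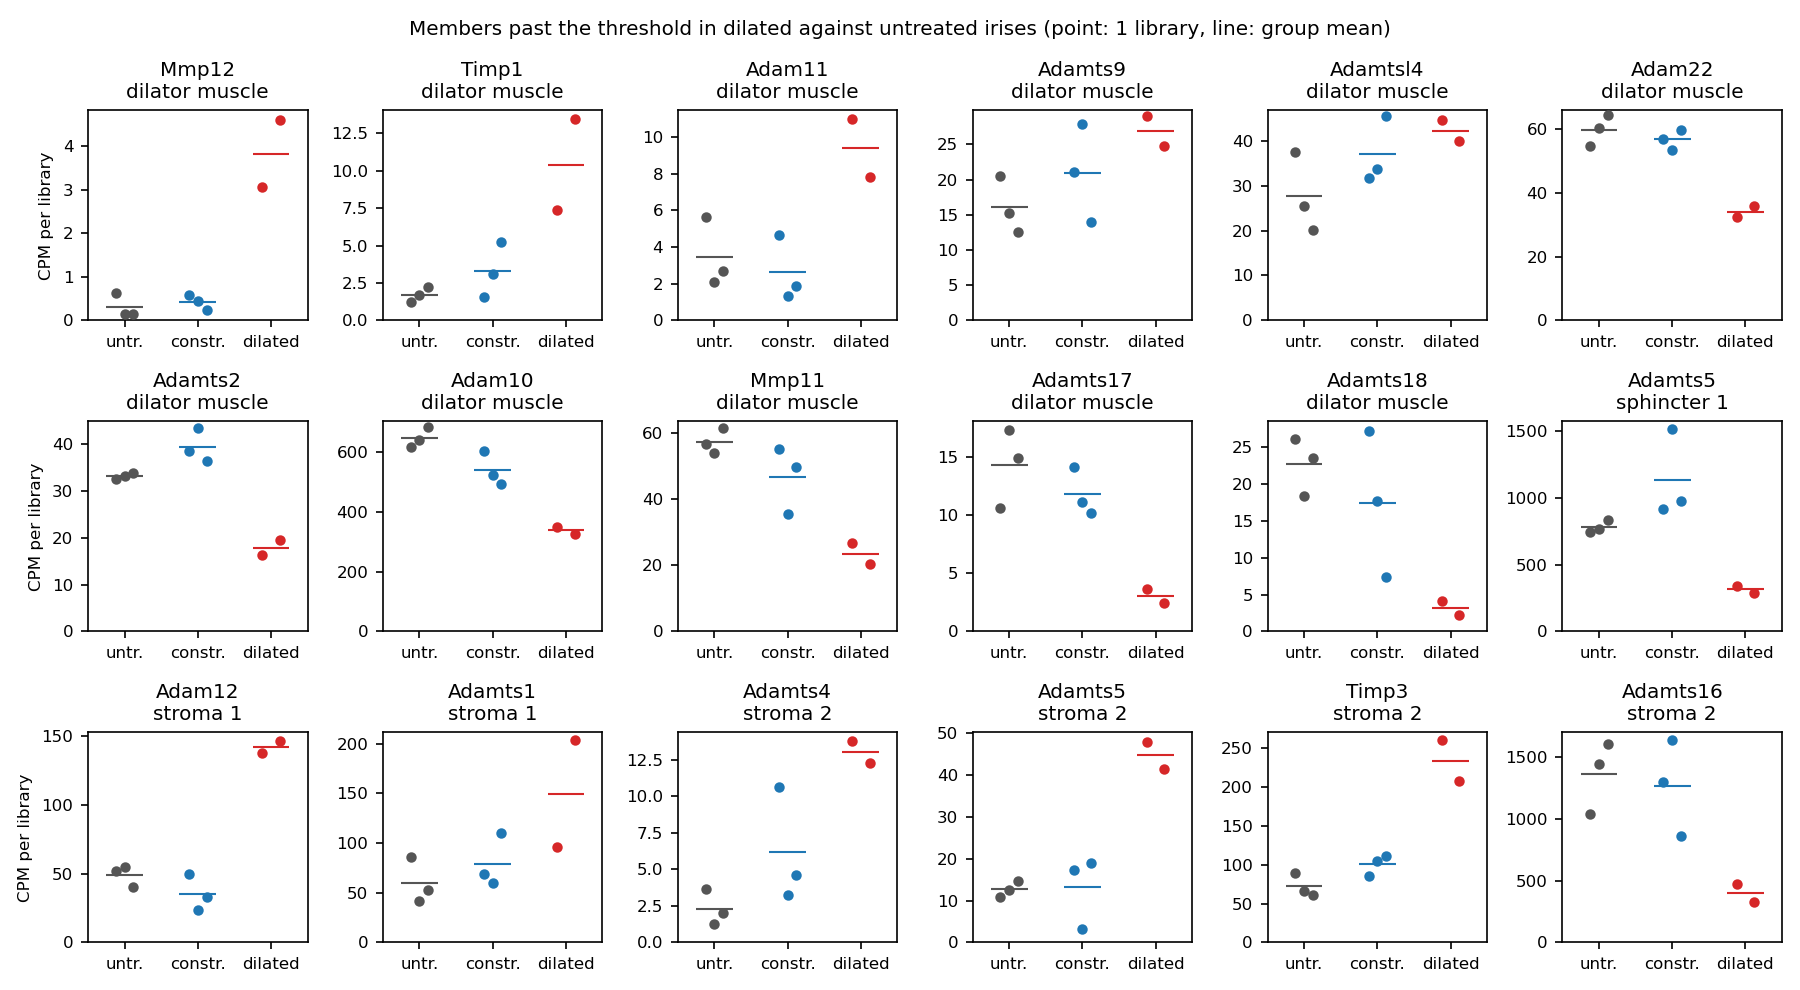
CPM of each called member in its cell type, with 1 panel per call, 1 point per library and a line at the group mean, each vertical axis starting at 0. Mmp12, Timp1, Adam12, Adamts4, Adamts5 (in stroma 2) and Timp3 show both dilated libraries above all others, while Adam10, Adamts17, Adamts18 and Adamts16 show both below.

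The largest rise in dilator muscle was that of Mmp12, macrophage elastase (GRCm38 chromosome 9, 7344381 to 7369499, plus strand in GENCODE vM21). It stood at 0.623, 0.141 and 0.158 CPM in untreated, 0.581, 0.443 and 0.237 CPM in constricted and 3.06 and 4.61 CPM in dilated libraries. The dilated libraries lay above the other 6, and the log2 fold change was 4.22 ± 0.67 (SE, edgeR adjusted p = 0.00123). These levels rested on 3 untreated and 54 dilated UMIs, a CPM ratio of 17.9 with an exact 95% interval of 5.81 to 89.5 that covers counting error only. In the dilated libraries the UMIs came from 19 and 14 nuclei, of 2567 and 1306, with at most 6 in a nucleus, and none of these nuclei was called a doublet. Only 1 of them had a UMI of a leukocyte marker (Ptprc, Mrc1 or Csf1r), and the summed level of these markers in dilator muscle was 6.49 to 15.6 CPM in untreated and 4.41 to 10.6 CPM in dilated libraries. The share of all dilator muscle nuclei with such a marker is not given here, and the part of leukocytes in the rise was not tested. With so few untreated UMIs the fitted change depends on the prior count. Mmp12 held 84 UMIs in the whole series and passed the filter on low counts only through its dilated libraries. DESeq2 gave no adjusted p for Mmp12, and Mmp1b lies on its opposite strand.

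Timp1, the inducible inhibitor of secreted MMPs (chromosome X, 20870166 to 20874735, overlapped by Syn1 on the opposite strand), also rose. Its level was 1.25, 1.69 and 2.21 CPM in untreated, 1.55 to 5.21 CPM in constricted, and 7.40 and 13.4 CPM in dilated dilator muscle. The dilated libraries were the highest of the 8, with a log2 fold change of 2.65 ± 0.50 (SE, edgeR adjusted p = 0.00365). Its dilated UMIs came from 73 and 62 nuclei, of which 7 and 2 held a UMI of a leukocyte marker, and the part of leukocytes was not tested here either. In iris PE the fitted Timp1 change was 1.90 (edgeR adjusted p = 0.325), with 3.47 and 4.45 CPM in dilated and up to 5.99 CPM in constricted libraries.

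The other 3 rises in dilator muscle were smaller. Adam11, a catalytically inactive ADAM, had 5.61, 2.11 and 2.69 CPM in untreated, 4.65, 1.33 and 1.90 CPM in constricted and 11.0 and 7.82 CPM in dilated libraries, a log2 change of 1.85 ± 0.44 (SE, edgeR adjusted p = 0.0142). It was not called without dilated replicate 1 (1.64), untreated replicate 2 (1.57) or untreated replicate 3 (1.75). Adamts9, a versican-cutting protease, changed by 0.99 ± 0.26 on the log2 scale and Adamtsl4, a fibrillin-binding protein, by 0.87 ± 0.23 (SE, edgeR adjusted p = 0.0214 and 0.0235). For both, the dilated range overlapped the constricted one: Adamtsl4 had 31.7 to 45.5 CPM in constricted and 39.9 to 44.5 CPM in dilated libraries. When libraries were scaled by total UMIs alone, which moved the median of all genes in dilator muscle from 0.02 to -0.16, neither of them was called, at 0.82 and 0.68. Both calls also ended without either dilated library or untreated replicates 2 or 3, with Adamts9 at 0.84 to 1.02 and Adamtsl4 at 0.68 to 0.87.

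Of the members that fell in dilator muscle, Adamts18 and Adamts17 fell furthest. Adamts18 had 26.2, 18.4 and 23.6 CPM in untreated, 27.3, 17.7 and 7.34 CPM in constricted and 4.15 and 2.20 CPM in dilated libraries. Both dilated values were the lowest, with constricted replicate 3 next, and the log2 change was -2.56 ± 0.45 (SE, edgeR adjusted p = 0.00252). Adamts17, whose human counterpart is mutated in a Weill-Marchesani-like syndrome of the lens and eye, had 10.6, 17.3 and 14.9 CPM in untreated, 14.1, 11.1 and 10.2 CPM in constricted and 3.65 and 2.41 CPM in dilated libraries. Its log2 change was -2.08 ± 0.31 (SE, edgeR adjusted p = 0.000941), with both dilated libraries below the other 6.

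Adam10 fell less steeply. It had 615, 640 and 684 CPM in untreated, 603, 523 and 492 CPM in constricted and 348 and 327 CPM in dilated dilator muscle, a log2 change of -0.75 ± 0.14 (SE, edgeR adjusted p = 0.00402). Mmp11, stromelysin-3, had 56.7, 53.9 and 61.4 CPM in untreated, 55.0, 35.4 and 49.5 CPM in constricted and 26.6 and 20.2 CPM in dilated libraries, with a log2 change of -1.11 ± 0.19 (SE, edgeR adjusted p = 0.00228). The dilated libraries were the lowest of the 8 for both genes, and the Mmp11 gene overlaps Chchd10 on the opposite strand. Adamts2, which trims the N-terminal propeptide of fibrillar collagen, changed by -0.73 ± 0.19 and Adam22, an inactive receptor of LGI1, by -0.64 ± 0.17 (SE, edgeR adjusted p = 0.0211 and 0.0237). Neither was called without dilated replicate 1, untreated replicate 2 or untreated replicate 3, at -0.52 to -0.70 for Adamts2 and -0.49 to -0.61 for Adam22. Adam22 lay close to the fold limit and was at -0.57 with the replicate block. Summed stroma 1 markers, which include the pigment genes Mitf and Tyrp1, were also lower in dilated dilator muscle, at 1121 to 1402 CPM against 1730 to 1963 CPM in untreated, and their part in these falls was not tested.

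In stroma 2 the inhibitor Timp3 and the aggrecanases Adamts5 and Adamts4 rose. Timp3 (chromosome 10, 86300372 to 86349506) had 89.5, 66.3 and 61.7 CPM in untreated, 85.8, 106 and 112 CPM in constricted and 261 and 208 CPM in dilated libraries. Both dilated values were well above the others, with a log2 change of 1.77 ± 0.19 (SE, edgeR adjusted p = 0.00137). The edgeR change of Timp3 was above 0 in all 10 cell types, from 0.19 in leukocytes to this highest value, but was called in stroma 2 alone. Timp3 lies inside Syn3 on the opposite strand.

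Adamts5 (chromosome 16, 85856173 to 85901828) had 10.9, 12.5 and 14.7 CPM in untreated, 17.4, 3.23 and 19.0 CPM in constricted and 48.0 and 41.5 CPM in dilated stroma 2. Both dilated libraries were above the other 6, and the log2 change was 1.80 ± 0.35 (SE, edgeR adjusted p = 0.0235). The call ended without any 1 of the untreated libraries or dilated replicate 1, at 1.73 to 1.93. Adamts4 had 3.63, 1.25 and 1.98 CPM in untreated, 10.7, 3.23 and 4.59 CPM in constricted and 13.7 and 12.3 CPM in dilated libraries, from 14, 29 and 72 UMIs. It differed by 2.77 ± 0.51 on the log2 scale (SE, edgeR adjusted p = 0.0205), with constricted replicate 1 close to the dilated values. Without dilated replicate 1, untreated replicate 2 or untreated replicate 3 it was at 2.73, 2.46 and 2.80 and not called. Adamts4 passed the filter on low counts in stroma 2 only with the help of its dilated libraries.

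Adamts16, the protease highest per kb in untreated stroma 2, fell there instead. It had 1043, 1444 and 1610 CPM in untreated, 1300, 1637 and 865 CPM in constricted and 477 and 329 CPM in dilated libraries. The dilated values were below all others, with a log2 change of -1.73 ± 0.29 (SE, edgeR adjusted p = 0.0127). In iris PE, where Adamts16 was about as abundant, the fitted change was -0.34 (edgeR adjusted p = 0.698). The edgeR change was below 0 in all 9 cell types tested, from -2.23 in leukocytes to -0.08 in sphincter 1, but was called in stroma 2 alone. With DESeq2 it was below 0 in 8 of the 9, with sphincter 1 at 0.03. The cell types come from the same libraries, so these signs are not independent. The stroma 2 call ended without dilated replicate 2 (-1.53), untreated replicate 2 (-1.67) or untreated replicate 3 (-1.59).

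The summed endothelial markers in stroma 2 were 132 to 151 CPM in untreated, 92.6 to 214 CPM in constricted and 458 to 685 CPM in dilated libraries. Most of this was Cldn5, at 99.1 to 132 CPM in untreated and 373 and 631 CPM in dilated libraries. Erg was also higher, at 4.25 to 7.51 CPM in untreated, 1.97 to 18.5 CPM in constricted and 58.5 and 23.4 CPM in dilated libraries. Pecam1 was 26.7 and 30.4 CPM in dilated and 14.4 to 45.9 CPM in untreated libraries. The part of these markers in the Timp3, Adamts5 and Adamts4 rises was not tested.

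In stroma 1, Adam12 and Adamts1 rose. Adam12, which cuts insulin-like growth factor binding proteins, had 52.0, 54.9 and 40.1 CPM in untreated, 49.7, 23.2 and 32.7 CPM in constricted and 138 and 147 CPM in dilated libraries. The dilated libraries lay above the other 6, and the log2 change was 1.56 ± 0.23 (SE, edgeR adjusted p = 0.00131). Adamts1 had 86.1, 41.7 and 53.0 CPM in untreated, 68.6, 59.4 and 110 CPM in constricted and 96.0 and 203 CPM in dilated libraries. Constricted replicate 3 lay above dilated replicate 1, and the log2 change of 1.41 ± 0.31 (SE, edgeR adjusted p = 0.0315) was 0.73 and not called without dilated replicate 2. Without untreated replicates 2 or 3 it was 1.22 and 1.35 and not called.

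In sphincter 1, Adamts5 was the only member called, and it fell. Its level was 747, 765 and 836 CPM in untreated, 918, 1513 and 975 CPM in constricted and 341 and 288 CPM in dilated libraries, with no overlap. The log2 change was -1.29 ± 0.24 (SE, edgeR adjusted p = 0.00505). Sphincter 1 had 1011 nuclei in all, of which 7.517% were called doublets, and the change was -1.22 and called with them left out. It was not called without dilated replicate 2 (-1.20) or untreated replicate 3 (-1.21).

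The inhibitors and enzymes named whatever their values did not pass elsewhere. Timp2 in dilator muscle was 145 to 172 CPM in untreated and 169 to 196 CPM in dilated libraries (log2 change 0.43, edgeR adjusted p = 0.14). Mmp14 in dilator muscle was 115 to 138 CPM in untreated and 96.8 to 149 CPM in dilated libraries (0.16, edgeR adjusted p = 0.559). Adam17 there was 46.8 to 50.0 CPM in untreated and 42.5 to 60.8 CPM in dilated libraries (0.28, edgeR adjusted p = 0.287), and Mmp2 in stroma 2 was 47.1 to 61.7 CPM in untreated and 50.8 to 52.3 CPM in dilated libraries (-0.09, edgeR adjusted p = 0.934).

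**Figure D3:**
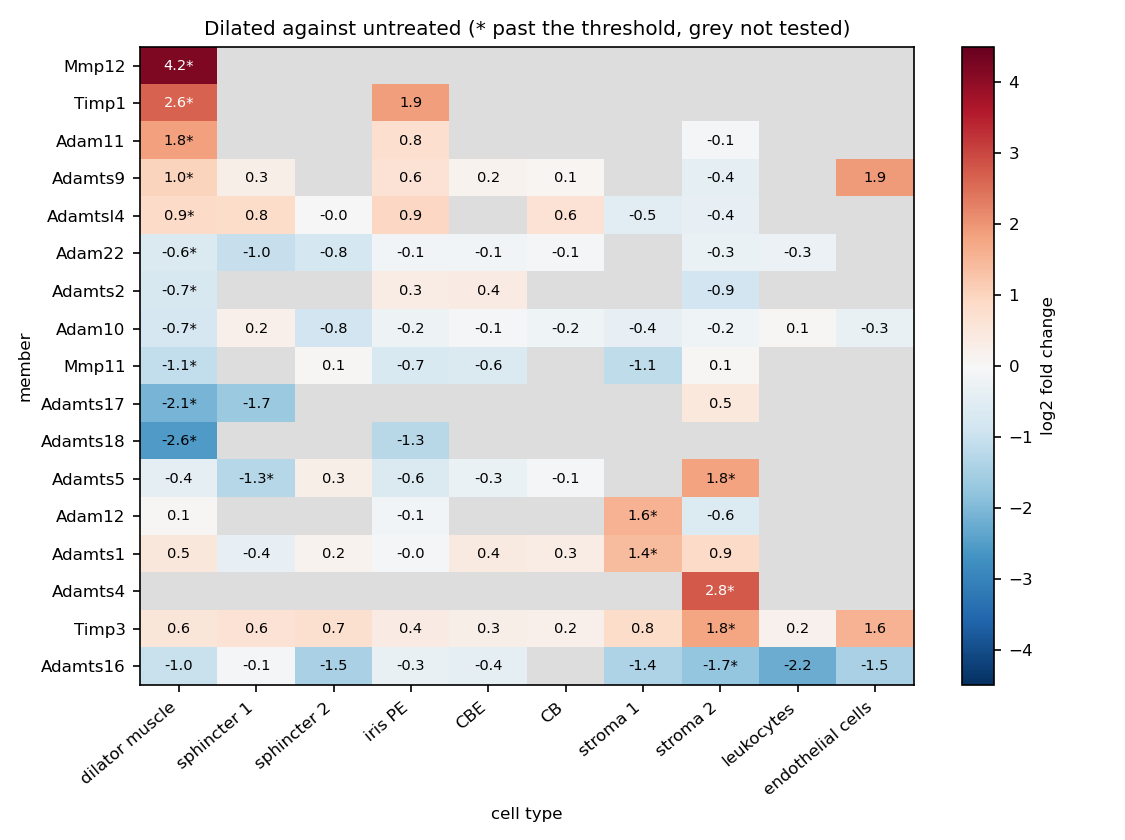
Fitted log2 fold change, dilated against untreated, of the 17 called members (rows) in the 10 cell types (columns), with an asterisk where a member was called and grey where it did not pass the filter on low counts. Adamts5 is positive in stroma 2 and negative in sphincter 1, and each other member was called in a single cell type.

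Whether the dilation effect differed between cell types was tested for members called in either type of a pair, over the 15 pairs formed by both stroma types, both sphincter types, dilator muscle and iris PE. Each pair had its own edgeR fit, in which every library had a term. Since these members were chosen by their effect in 1 of the 2 types, the counts that follow are descriptions. Some members entered a pair without having passed the filter on low counts in the other type by itself. Between dilator muscle and stroma 2, 9 of 15 members passed (8.13% of all genes), and between dilator muscle and iris PE 5 of 11 passed (12.2%). Dilator muscle against stroma 1 gave 3 of 12 (5.73%), and against sphincter 1 it gave 2 of 11 (6.71%). For iris PE, 4 of 4 passed against stroma 2 (3.29%) and 2 of 2 against stroma 1 (1.53%). Stroma 2 gave 3 of 6 against stroma 1 (2.4%), 3 of 4 against sphincter 1 (3.25%) and 2 of 3 against sphincter 2 (1.33%). Sphincter 2 against sphincter 1 gave 1 of 1 (3.33%), and stroma 1 gave 1 of 3 against sphincter 1 (1.11%) and 1 of 2 against sphincter 2 (1.13%). No member passed for dilator muscle against sphincter 2 (0 of 9, 2.1%), iris PE against sphincter 1 (0 of 1, 1.95%) or iris PE against sphincter 2, where none was eligible.

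Adamts5 was called in both stroma 2 and sphincter 1, in opposite directions. Its dilation effect in sphincter 1 minus that in stroma 2 was -3.09 ± 0.33 log2 units (SE, edgeR adjusted p = 3.05e-08). The effect in sphincter 2 exceeded that in sphincter 1 by 1.55 ± 0.26 (SE, edgeR adjusted p = 2.89e-05), although sphincter 2 rested on 712 nuclei. The effect in stroma 2 exceeded that in dilator muscle by 2.23 ± 0.28 (SE, edgeR adjusted p = 9.86e-05).

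For Timp3, the effect in stroma 2 exceeded that in stroma 1 by 1.01 ± 0.24 (SE, edgeR adjusted p = 0.0128) and that in iris PE by 1.39 ± 0.18 (SE, edgeR adjusted p = 9.75e-05). The fall of Adamts16 in stroma 2 exceeded that in iris PE, with a difference of -1.37 ± 0.17 (SE, edgeR adjusted p = 3.67e-05). Adam12 differed between stroma 2 and stroma 1 by -2.10 ± 0.31 (SE, edgeR adjusted p = 0.000117). In muscle, the Adam10 effect in sphincter 1 was 1.00 ± 0.24 above that in dilator muscle (SE, edgeR adjusted p = 0.00253). In sphincter 2 the fitted Adam10 change was -0.85 and not called (edgeR adjusted p = 0.0622). Sphincter 2 minus dilator muscle was -0.08 ± 0.22 for Adam10 (SE, edgeR adjusted p = 0.947).

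**Figure D4:**
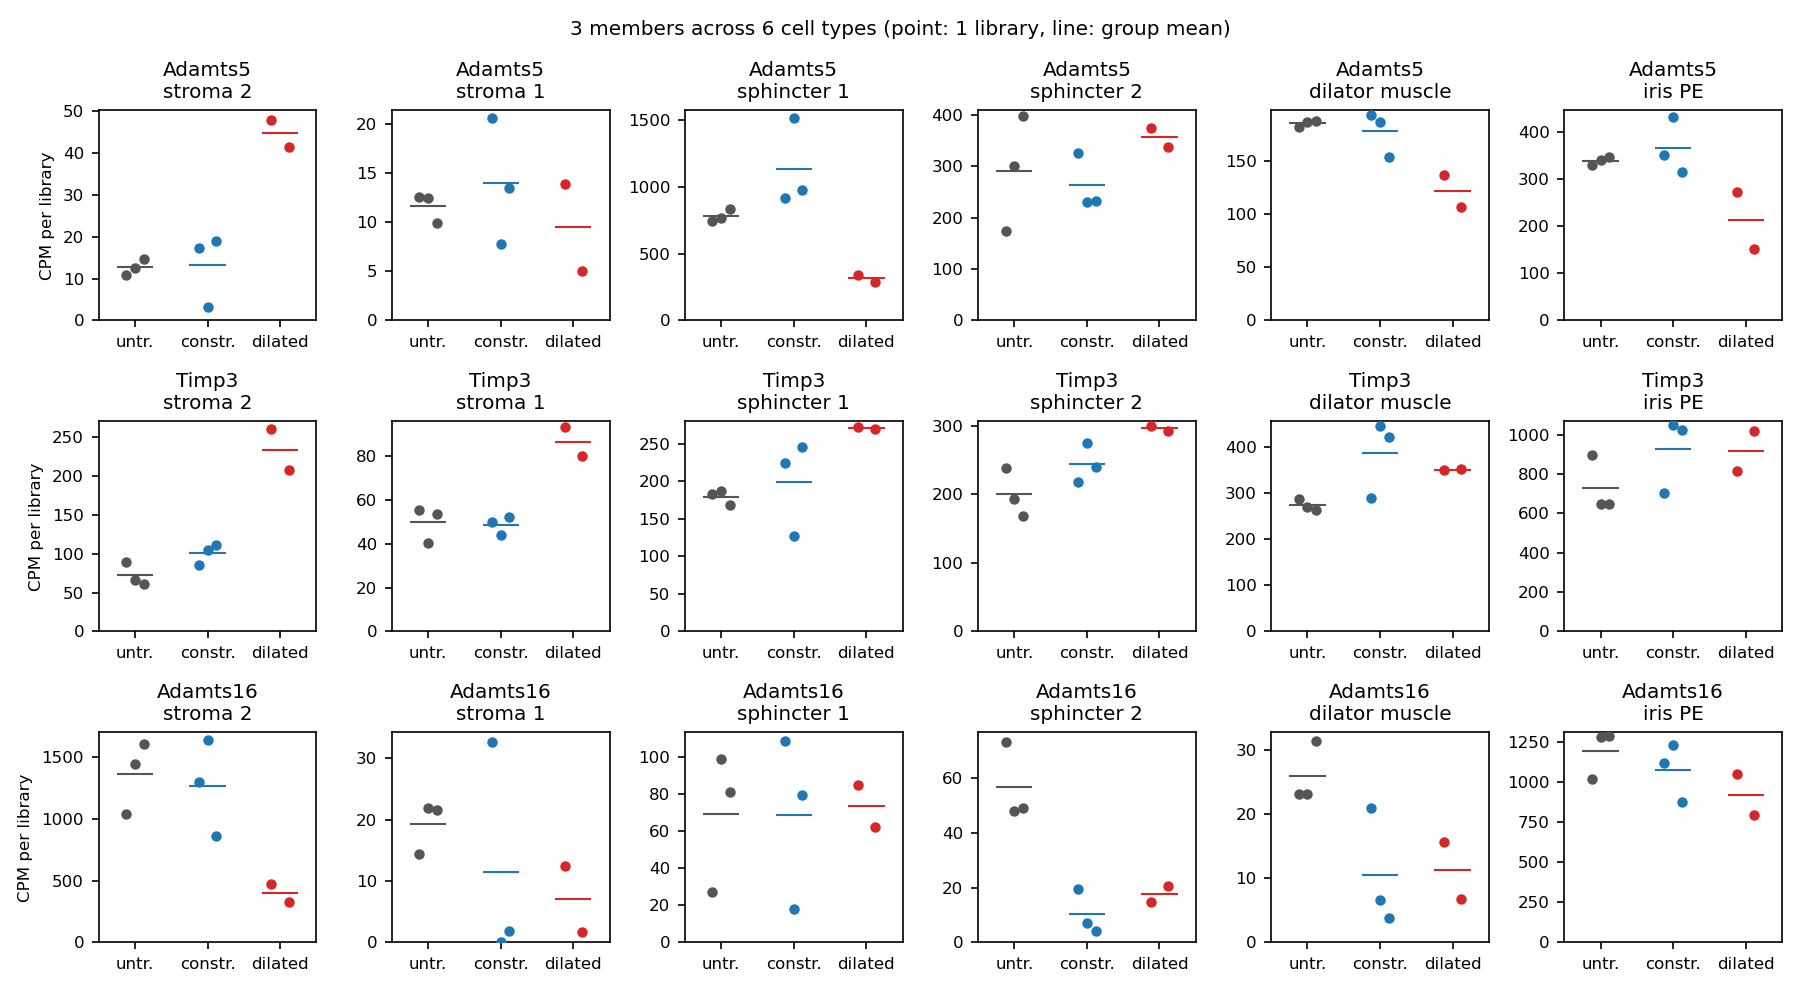
CPM per library (points) and group mean (lines) of Adamts5, Timp3 and Adamts16 (rows) in 6 cell types (columns), each axis starting at 0. In dilated libraries Adamts5 is at 341 and 288 CPM in sphincter 1, below the others, and at 48.0 and 41.5 CPM in stroma 2, above the others.

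Constriction was compared with no treatment in the same way, and no member was called in any cell type by edgeR, where 0.0118% of all genes were called over the 10 types. Of 241 tests on members, 39 had an unadjusted p under 0.05, where 5.25% of all gene tests did, and DESeq2 called 1. The lowest edgeR adjusted p was that of Adamts16 in sphincter 2, at 0.136.

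Dilated and constricted irises, a comparison that shares its libraries with the other comparisons, gave 14 member calls, 7 higher and 7 lower in dilated irises, with 2.65% of all genes called. In dilator muscle 8 of 47 were called, where 10.5% of all genes were: Mmp12, Timp1, Adam11 and Adamts1 higher, and Adamts17, Adamts18, Mmp11 and Adamts2 lower. Adamts1 there changed by 0.76 ± 0.15 (SE, edgeR adjusted p = 0.00674), from 232 to 337 CPM in constricted to 391 and 478 CPM in dilated libraries. In stroma 2, Timp3 was higher by 1.25 ± 0.19 and Adamts1 by 1.46 ± 0.27, and Adamts16 differed by -1.62 ± 0.29 (SE, edgeR adjusted p = 0.0134, 0.0384 and 0.0304). Adam12 in stroma 1 was higher by 1.97 ± 0.26 (SE, edgeR adjusted p = 0.00134), and Adamts5 in sphincter 1 differed by -1.83 ± 0.25 (SE, edgeR adjusted p = 8.4e-05). The remaining call, named after its values were seen, was Adamtsl1 in iris PE at -0.86 ± 0.16 (SE, edgeR adjusted p = 0.0248), with 154 to 182 CPM in constricted and 93.6 and 83.2 CPM in dilated libraries.

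Genes that act with the members were read from lists of partners, activators, inhibitors and substrates. Plat, tissue plasminogen activator, which starts a cascade that activates proteases outside the cell, had 39.3 to 45.5 CPM in untreated and 319 and 421 CPM in dilated dilator muscle. Its log2 change was 3.31 ± 0.17 (SE, edgeR adjusted p = 4.58e-07), and it also rose in iris PE by 1.79 ± 0.26 (SE, edgeR adjusted p = 0.00657). Serpine2, protease nexin-1, rose in stroma 2 by 1.03 ± 0.21 and fell in sphincter 1, with a log2 change of -1.38 ± 0.30 (SE, edgeR adjusted p = 0.0272 and 0.0141).

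Of the 6 microfibril genes, which hold the substrates and partners of several ADAMTS proteins, 1 of 5 rose in dilator muscle (13.3% of all genes called; Ltbp1, 2.31 ± 0.22 SE) and 2 of 4 in stroma 2 (1.73%; Thsd4, 2.27 ± 0.42, and Fbn2, 1.09 ± 0.20), with 1 of 4 lower in sphincter 1 (1.95%; Thsd4, -1.25 ± 0.27). Thsd4, which codes for ADAMTSL6, thus had opposite signs in stroma 2 and sphincter 1, a difference that was not tested. Versican (Vcan), a substrate of several ADAMTS enzymes, was the single hyalectan tested in stroma 2 and changed by -1.50 ± 0.23 (SE, edgeR adjusted p = 0.00763).

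All 4 proprotein convertases, which cut the propeptides of ADAM, ADAMTS and MMP14 precursors, were tested in dilator muscle, where 13.3% of all genes were called. Furin rose (0.81 ± 0.17 SE) and Pcsk5 fell (-1.08 ± 0.17 SE) there. Pcsk5 also fell in sphincter 2, by 1.28 in dilated and by 1.31 in constricted irises on the log2 scale (edgeR adjusted p = 0.00782 and 0.0214). In that type 2 convertases were tested, and 2.87% and 0.0897% of all genes were called. All 8 partners of ADAM10 and ADAM17 were tested in dilator muscle and iris PE. Rhbdf1 rose (0.94 ± 0.25 SE) and Tspan10 fell (-0.75 ± 0.15 SE) in dilator muscle (13.3% of all genes called). Rhbdf2 rose in iris PE (1.06 ± 0.21 SE), where 0.595% of all genes were called. Of 6 other inhibitors and clearance receptors, 4 were tested in dilator muscle (13.3% of all genes called), and the broad inhibitor A2m rose there (1.86 ± 0.50 SE). No further gene of the microfibril, hyalectan, convertase, partner and inhibitor lists was called in dilated against untreated irises.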

How the data were processed

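Per the labels and the study's methods, the authors aligned reads of 8 single nucleus libraries (10x 3′ chemistry) to an mm10 pre-mRNA index with Cell Ranger 3.1.0, kept nuclei by detected genes and mitochondrial content, and clustered them in Seurat. The deposited matrices hold UMI counts, not normalized, and the deposited tables give cell type labels and the mitochondrial percent of each nucleus (at most 0.9908). The deposited count of nuclei with each gene served for gene order only. Library totals ran from 5189437 to 25136427 UMIs.

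For every library, UMIs of each gene were added up over the nuclei of a type, and these sums were tested with edgeR 4.0.16 (TMM, filterByExpr, quasi-likelihood, all 8 libraries in 1 fit per cell type) in R 4.3.3, with Benjamini-Hochberg adjustment over all genes tested. Scripts were tested on simulated data. Alternatives were DESeq2 1.42.0, RLE or total-UMI scaling, no filter, a replicate block, a library number term, subsets of nuclei and leaving out each library. Scrublet (scanpy 1.11.5) called 359 doublets (1.045%), which stayed in. Coordinates are those of GENCODE vM21, matched by name for 22475 of 22873 genes, and promoters those of RefSeq.

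Members and lists were chosen with earlier results of these data known. The text names members called against untreated irises, the 2 highest per kb in each cell type, the 4 Timp genes, Adam10, Adam17, Mmp2 and Mmp14. Some genes of the lists and of the overlapping gene models are not reported here.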

Additional observations from a re-analysis of the deposited data

Results flagged for a closer look

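The dilation effect (log2 fold change, dilated against untreated) differed between cell types for 15 members in 36 tests that passed an edgeR adjusted p of 0.05. Each is given as the effect in the first type minus that in the second. Members were eligible only through a call in at least 1 of the 2 types, so these are descriptions. Adjustment was within each pair, and 1.11% to 12.2% of all genes passed, depending on the pair. The numbers of members tested per pair are given above. Iris PE minus dilator muscle was 0.60 for Adam22, 1.30 for Adamts18, 0.55 for Adam10, 1.18 for Adamts2 and -1.13 for Adam11. Stroma 1 minus dilator muscle was -1.42 for Adamtsl4, 1.36 for Adam12 and -3.98 for Adam11. Stroma 2 minus dilator muscle was 2.85 for Adamts4, -1.33 for Adamtsl4, -1.36 for Adamts9, 2.66 for Adamts17, 1.24 for Mmp11, 1.25 for Timp3, 0.57 for Adam10, -1.97 for Adam11 and 2.23 for Adamts5. Adam11 in stroma 1 (23 UMIs in untreated and 2 in dilated libraries) and Adamts4 in dilator muscle (16 and 15 UMIs) did not pass the filter on low counts in that type, so these differences rest on few UMIs there. Sphincter 1 minus dilator muscle was 1.00 for Adam10 and -0.84 for Adamts5.

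Stroma 1 minus iris PE was 1.62 for Adam12 and 1.35 for Adamts1. Stroma 2 minus iris PE was 2.45 for Adamts4, 1.39 for Timp3, -1.37 for Adamts16 and 2.43 for Adamts5. Adamts4 in iris PE, with 30 UMIs in untreated and 29 in dilated libraries, and Adamts5 in stroma 1, with 40 and 13, did not pass that filter either. Stroma 2 minus stroma 1 was -2.10 for Adam12, 1.01 for Timp3 and 2.03 for Adamts5. For Adamts1, sphincter 1 minus stroma 1 was -1.80 and sphincter 2 minus stroma 1 was -1.24. Sphincter 1 minus stroma 2 was -1.17 for Timp3, 1.77 for Adamts16 and -3.09 for Adamts5. Sphincter 2 minus stroma 2 was -1.08 for Timp3 and -1.56 for Adamts5, and sphincter 2 minus sphincter 1 was 1.55 for Adamts5.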

How the results depend on the processing

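Of the 18 calls in dilated against untreated irises, 8 held under every alternative that gave a value, 7 were lost only when a library was left out and 3 otherwise (Adamts9, Adamtsl4 and Adam22). Over all cell types there were 29 member calls with no filter on low counts and 40 with the library number series as a term, against 18. In the same comparison, no filter gave 11 in stroma 2 and 2 each in sphincter 2 and iris PE, and the series term gave 12 in stroma 2, 4 each in sphincter 1 and iris PE, 2 in sphincter 2 and 1 in endothelial cells. DESeq2 gave 7 in stroma 2, leaving out doublets 2 in sphincter 1 and 1 in sphincter 2, scaling by total UMIs (added after the data were seen, as was leaving out shared barcodes) 1 in sphincter 2, and fitting only the 2 conditions 1 each in sphincter 2, iris PE and endothelial cells. In constricted against untreated irises, no filter gave 7 in all (3 in stroma 2, 2 in endothelial cells, 1 each in sphincter 2 and CBE), the series term 3 (1 each in CBE, stroma 1 and stroma 2) and DESeq2 1 (stroma 2), against 0. In dilated against constricted irises, no filter gave 3 in iris PE, 3 in stroma 1, 5 in stroma 2 and 1 in endothelial cells, the series term 3 in iris PE and 5 in stroma 2, DESeq2 3 in iris PE, and fitting only the 2 conditions 0 in iris PE and 1 in stroma 2. Leaving out each library in turn gave 8 to 21 member calls in dilated against untreated irises (without untreated replicate 3, 8, and without untreated replicate 2, 9), with 6 to 13 in dilator muscle, 1 to 6 in stroma 2, 1 to 2 in stroma 1 and 0 to 1 in sphincter 1, sphincter 2 and iris PE. It gave 0 in constricted against untreated irises and 9 to 14 in dilated against constricted irises, with 4 to 8 in dilator muscle, 0 to 2 in iris PE, 1 in sphincter 1 and stroma 1, and 0 to 3 in stroma 2. Shares of all genes called under these alternatives, or with the replicate block below, are not reported here. Whether the members or all genes shifted thus cannot be read from these counts, and the cause of these shifts was not tested.

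With the replicate block, dilated against untreated irises gave 23 member calls in all and 1 each in iris PE and leukocytes, constricted against untreated 1 (stroma 2), and dilated against constricted 2 in iris PE and 5 in stroma 2. Replicate numbers did not pair the libraries by the rule used: deviations from the group means correlated at 0.216 and 0.17 for same-numbered dilated and untreated libraries but at -0.0114 for constricted and untreated replicate 2. Libraries of different conditions from the same run of library numbers correlated at 0.17 to 0.485. Libraries from the run of dilated 1 correlated at -0.485 to -0.164 with those from the run of dilated 2. Deviations within a condition cancel, which ties some of these signs together. The part of a batch in them was not tested. Levels changed their order of cell types with all 8 libraries in place of the untreated ones for the log2 ratios of Adam12 in iris PE to stroma 1 (-0.48), Adamts1 in iris PE to dilator muscle (-0.20), Adamts18 and Adamts4 in sphincter 2 to iris PE (-0.13 and -0.60), Adamts9 in CB to CBE (-0.13) and Mmp14 in CB to dilator muscle (-0.0099). Leaving out each untreated library in turn, these ran from -0.18 to 0.30, -0.29 to 0.19, -0.13 to 0.60, -0.35 to 0.99, -0.097 to 0.59 and -0.11 to 0.20, and the ratios of Adam33 in stroma 1 to leukocytes from -0.029 to 1.06 and of Timp1 in leukocytes to CB from -0.65 to 3.56. Differences between cell types kept their call in 213 values and lost it in 27, and leaving out libraries was not run for pairs without stroma 2. Depth limits leukocytes and endothelial cells, where 9 and 4 members were tested.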
